A study of Mus musculus with 12 samples.

Results

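Interferon-stimulated genes are the genes that cells switch on after interferon binds its receptors. Members were the genes of the kidney count table whose symbol matched a list of 35 such genes, and all 35 were found among the 39171 genes of the table. Each of the 35 also had counts high enough to be tested, as had 15589 genes in all. RNA had been sequenced from the kidneys of 12 male mice aged up to 3 months, 1 library per mouse. Of these, 4 mice were homozygous for the M743T substitution in GNE (GNE M743T/M743T knock in) and classed as sick, 4 had that same knock-in genotype and were classed as healthy, and 4 were wild-type and classed as healthy. Gne codes for the epimerase and kinase with which cells begin to make sialic acid. The sources used here do not name the strain, the signs by which mice were called sick or any treatment.

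Interferons fall into type I (the alpha and beta interferons and their relatives), type II (interferon gamma) and type III (the lambda interferons). Type I and type III interferons act through the kinases Jak1 and Tyk2 to assemble a complex with Stat2 and Irf9 in it, which binds the interferon-stimulated response element (ISRE). Interferon gamma acts through Jak1 and Jak2 and leads to binding at the gamma-activated site (GAS). The products of the induced genes sense foreign nucleic acid, block viral replication, feed peptides to MHC class I, or tune the response itself. In the kidney, tubular cells, endothelium and resident macrophages can all respond to interferon.

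Library totals were 10605546 to 22633684 counts among the sick knock-in mice, 18191087 to 21925419 among the healthy knock-in mice and 13189478 to 19493856 among the wild-type mice. CPM values are relative to effective library sizes, and the spread is given over the 4 mice of a group. Genes of the proximal tubule, the segment that takes back most of the filtered solutes, were present in every library, but all 6 of those listed fell in sick kidneys against both other groups. Their summed level was 1217 to 3242 CPM in sick knock-in, 32166 to 42412 CPM in healthy knock-in kidney and 9593 to 41650 CPM in wild-type kidney. All 10 macrophage markers rose, with a summed level of 879 to 1824 CPM in sick knock-in, 207 to 266 CPM in healthy knock-in kidney and 132 to 260 CPM in wild-type kidney. The 10 listed T and NK cell markers summed to 12.3 to 36.3 CPM in sick knock-in, 8.66 to 13.6 CPM in healthy knock-in kidney and 4.16 to 8.87 CPM in wild-type kidney, and of the 9 tested 8 rose against wild-type and 4 against healthy knock-in. The 6 listed B and plasma cell markers did not rise. They summed to 3.52 to 73.9 CPM in sick knock-in, 10.9 to 367 CPM in healthy knock-in and 8.90 to 104 CPM in wild-type kidney. Of the 4 tested, 0 were called against wild-type, and 2 fell and 0 rose against healthy knock-in, where 21.9% of all genes fell. None of the listed markers of these kinds was at 0 in all libraries, and their part in the results on interferon-stimulated genes was not tested. In whole kidney, a change in the number of cells of a type and a change in RNA per cell cannot be told apart. Some libraries stood apart from their groups. Sick knock-in mouse 3 had the smallest library of all and the highest level of its group in 29 of the 35 members (82.9%), while it was the highest of its group in 34.6% of all genes. Wild-type mouse 2 had the low proximal tubule sum of 9593 CPM, where the rest of its group had 35955 to 41650 CPM, and was the highest of its group for 14 members (40.0%) and for 40.0% of all genes. Wild-type mouse 4 was the highest of its group for 16 members (45.7%) and for 24.6% of all genes, and had the highest macrophage and T and NK cell sums of the wild-type mice, at 260 and 8.87 CPM.

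To show what these genes share in sequence, the 250 bases upstream of each RefSeq transcription start (GRCm38.p6) were searched on both strands for the ISRE core GAAANNGAAA and the GAS core TTCNNNGAA. RefSeq upstream sequence was at hand for 28 of the 35 members, all but Oas2, Mx1, Mx2, Ifi27, Zbp1, Usp18 and Rtp4. The ISRE core was present in 13 of these 28 (46.4%), against 3.46% of 27025 genes. The GAS core was present in 7 of the 28 (25.0%), against 8.13% of all genes. Matches can overlap, as the 3 ISRE cores of Isg15 do, and in Bst2 an ISRE core shares bases with the GAS core. These are matches of letters, and no binding was measured. The stretches below are shown because the genes behind them behaved differently in sick kidneys, as described further on, with the matched bases in capitals. They lie at chr19:34640760-34640838 on the forward strand for Ifit1, chr4:156200850-156200921 on the reverse strand for Isg15, chr12:26456538-26456597 on the reverse strand for Rsad2, chr3:142530258-142530317 on the forward strand for Gbp7 and chr11:53769899-53769957 on the forward strand for Irf1. The first 4 carry ISRE cores and that of Irf1 carries a GAS core.
Ifit1: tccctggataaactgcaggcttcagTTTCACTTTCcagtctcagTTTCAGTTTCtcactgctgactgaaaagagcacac
Isg15: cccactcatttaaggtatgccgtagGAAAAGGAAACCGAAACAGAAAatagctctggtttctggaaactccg
Rsad2: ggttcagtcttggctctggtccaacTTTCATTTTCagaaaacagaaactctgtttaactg
Gbp7: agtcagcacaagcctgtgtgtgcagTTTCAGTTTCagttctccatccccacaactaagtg
Irf1: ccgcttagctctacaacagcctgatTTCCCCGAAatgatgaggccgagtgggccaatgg

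Sick knock-in kidneys were compared with wild-type kidneys to see what accompanies illness in mice with the substitution. Interferon-stimulated genes were mostly higher in sick kidneys. In edgeR's quasi-likelihood test, adjusted over all genes tested, 24 of the 35 members rose (68.6%) and 1, Rsad2, fell, at an adjusted p below 0.05. Among all genes tested, 25.9% rose and 25.0% fell. The median log2 fold change was 1.15 over the members and 0.02 over all genes tested. The 4 sick mice lay above the 4 wild-type mice without overlap in 17 members, as they did in 22.7% of all genes. Scaling to library totals without TMM put the median log2 fold change over all genes at 0.61. The shares of all genes rising and falling became 54% and 10.3%, and 32 members rose and 0 fell. When each of the 8 libraries was left out in turn, 19 of the 25 calls were kept every time, and Ifit1, Ifit3, Oas3, Psmb9, Rtp4 and Xaf1 were each lost at least once. Of the members with upstream sequence, the ISRE core stood in 7 of the 20 that rose against wild-type, in Rsad2, which fell, and in 5 of the 7 that were not called.

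Against healthy knock-in mice, which share the genotype and differ in being well, 27 of the 35 members rose in sick mice and 0 fell, where 24.5% of all genes rose and 21.9% fell, and Rsad2 and Igtp, at log2 fold changes of -0.66 and -0.34, were not called. The median log2 fold change was 1.20 over the members and 0.05 over all genes. The groups did not overlap in 24 members, all higher in sick mice, as did 24.0% of all genes in that direction. Both comparisons use the same 4 sick libraries and are therefore not independent. In all, 23 members rose in both, Oas3 rose against wild-type alone, and Bst2, Isg15, Mx2 and Oas1a rose against healthy knock-in alone. Ifi35, Ifi44, Igtp, Irgm1, Usp18 and Zbp1 were called in neither. Of the 27 calls against healthy knock-in mice, 18 were kept whichever library was left out, and those of Ifit1, Oas1a, Mx2, Bst2, Isg15, Gbp7, Psmb9, Rtp4 and Xaf1 were lost at least once.

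**Figure D1:**
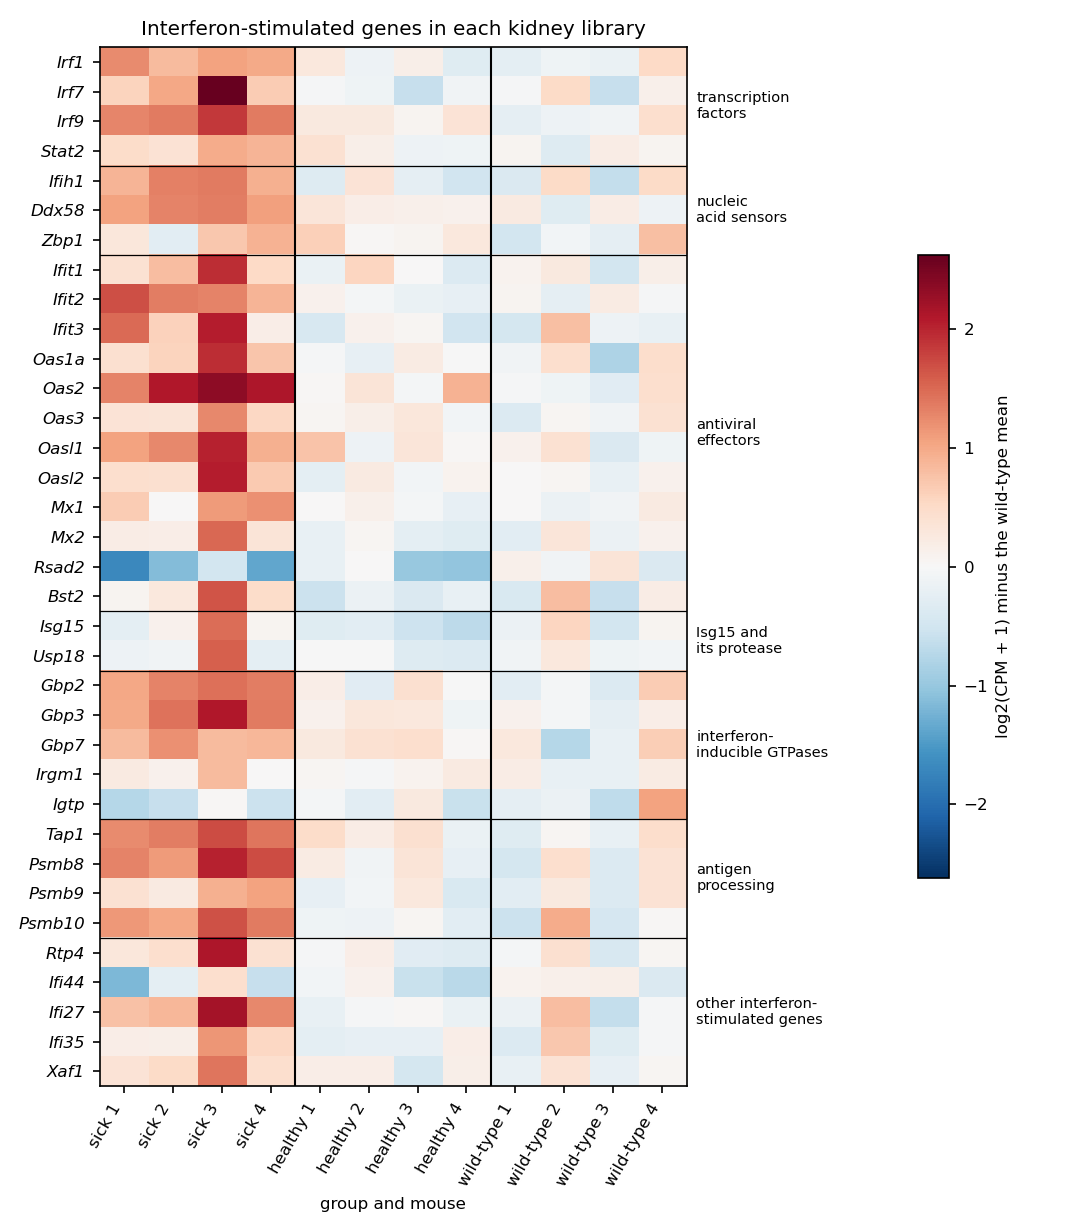
Level of the 35 interferon-stimulated genes in each of the 12 kidney libraries, as log2(CPM + 1) minus the mean of the 4 wild-type libraries, with rows grouped by role. Most rows are red in all 4 sick columns and deepest in sick mouse 3, which was the highest sick mouse in 29 of 35 members. The rows of Rsad2, Igtp and Usp18 are among those that are blue in most sick columns.

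All 4 transcription factors rose in both comparisons. Irf9, the DNA-binding part of the interferon-induced Stat complex (ENSMUSG00000002325, chromosome 14 from 55603571 to 55610030), was at 36.7, 38.7, 54.9 and 39.0 CPM in sick knock-in mice 1 to 4. It stood at 17.4, 17.6, 15.2 and 18.8 CPM in healthy knock-in mice and at 12.2, 13.1, 13.5 and 20.0 CPM in wild-type mice. All 4 sick mice were above every other mouse, with mouse 3 the highest. Its log2 fold change was 1.52 ± 0.18 (SE) against wild-type and 1.29 ± 0.18 against healthy knock-in, with edgeR adjusted p-values of 3.0e-05 and 1.1e-04. Irf7, the factor that amplifies type I interferon production, was at 16.5, 22.6, 70.8 and 17.5 CPM in sick knock-in mice, against 10.5, 9.82, 6.64 and 9.99 CPM in healthy knock-in mice and 10.4, 15.6, 6.67 and 11.7 CPM in wild-type mice. The groups did not overlap, but sick mouse 3 was far above the other sick mice and sick mouse 1 lay just above wild-type mouse 2. The log2 fold change of Irf7 was 1.51 ± 0.44 against wild-type (edgeR adjusted p = 0.0115), and 0.76 without sick mouse 3 (adjusted p = 0.0289). Irf1, an early target of interferon gamma named here after its values were seen, was even across the sick mice, at 41.4, 31.1, 36.5 and 34.7 CPM, against 20.7, 15.5, 19.0 and 13.3 CPM in healthy knock-in mice and 14.1, 15.7, 15.0 and 25.0 CPM in wild-type mice. It rose by 1.04 ± 0.20 against wild-type and 1.07 ± 0.20 against healthy knock-in, and by 1.03 and 1.06 without sick mouse 3. Stat2, the partner of Irf9, averaged 30.5 ± 6.34 CPM in sick knock-in, 19.7 ± 3.77 CPM in healthy knock-in kidney and 18.5 ± 2.88 CPM in wild-type kidney (SD, n = 4 each), a log2 fold change of 0.72 ± 0.19 against wild-type.

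Of the 3 nucleic acid sensors, Ddx58 and Ifih1 rose in both comparisons and Zbp1 did not pass. Ddx58 encodes RIG-I, a cytosolic sensor of viral RNA (ENSMUSG00000040296, chromosome 4 from 40203773 to 40239828). Its level was 48.3, 57.4, 59.6 and 49.0 CPM in sick knock-in mice, against 28.7, 25.7, 24.9 and 24.8 CPM in healthy knock-in mice and 26.9, 18.2, 26.3 and 20.7 CPM in wild-type mice. The sick mice formed a narrow range well above the other groups, and the log2 fold changes of 1.22 ± 0.14 against wild-type and 1.04 ± 0.14 against healthy knock-in had adjusted p-values of 2.7e-05 and 9.8e-05 in edgeR. Ifih1, which encodes the long RNA sensor MDA5, averaged 20.0 ± 3.59 CPM in sick knock-in, 7.63 ± 2.40 CPM in healthy knock-in kidney and 9.10 ± 3.89 CPM in wild-type kidney (SD, n = 4 each). Zbp1, a sensor of Z-form nucleic acid that can start necroptosis, was at 0.996 to 3.55 CPM in sick knock-in, 1.47 to 2.73 CPM in healthy knock-in and 0.728 to 3.13 CPM in wild-type kidney, so that the groups overlapped.

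Antiviral effectors made up the largest role, and 8 of its 12 members rose and 1 fell against wild-type, while 10 rose and 0 fell against healthy knock-in. The oligoadenylate synthetases make the second messenger that activates RNase L. Oas2 (ENSMUSG00000032690, chromosome 5 from 120730333 to 120749853) had the largest rise of all members. It was at 4.95, 9.43, 11.4 and 9.46 CPM in sick knock-in mice, against 1.46, 2.05, 1.32 and 3.58 CPM in healthy knock-in mice and 1.38, 1.24, 0.953 and 2.28 CPM in wild-type mice. Sick mouse 1 was the lowest of its group and still above every other mouse. The rise was 5.93-fold over wild-type (log2 fold change 2.57 ± 0.39, edgeR adjusted p = 1.6e-04) and 4.16-fold over healthy knock-in (2.06 ± 0.37, adjusted p = 6.9e-04). Oasl1, an Oas-like protein without synthetase activity that in mice restrains translation of Irf7, was at 4.50, 5.38, 9.75 and 4.06 CPM in sick knock-in mice, against 3.43, 1.42, 2.29 and 1.70 CPM in healthy knock-in mice and 1.86, 2.48, 1.04 and 1.44 CPM in wild-type mice. No sick mouse overlapped either group, and the log2 fold change against wild-type was 1.77 ± 0.38 (adjusted p = 0.00181). Oasl2, a relative that makes the messenger, is named here after its values were seen. It was at 13.1, 12.9, 42.4 and 15.8 CPM in sick knock-in mice, against 7.75, 11.2, 8.87 and 10.2 CPM in healthy knock-in mice and 9.55, 9.79, 8.15 and 10.3 CPM in wild-type mice. All sick mice were above the other groups, mouse 3 by far, and the log2 fold change of 1.15 ± 0.34 against wild-type was 0.55 without mouse 3 (edgeR adjusted p = 0.0134 and 0.0174). Oas1a and Oas3 were low, averaging 3.56 ± 2.56 and 1.72 ± 0.910 CPM in sick knock-in, 1.19 ± 0.269 and 0.842 ± 0.197 CPM in healthy knock-in kidney and 1.34 ± 0.848 and 0.734 ± 0.384 CPM in wild-type kidney. Each of these passed in 1 comparison alone, with adjusted p-values for Oas1a of 0.0501 against wild-type and 0.0311 against healthy knock-in, and for Oas3 of 0.0365 and 0.0668.

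The Ifit proteins bind viral RNA and hold back its translation, and their genes lie side by side on chromosome 19, Ifit2 from 34550694 to 34576419, Ifit3 from 34583531 to 34588731 and Ifit1 from 34640871 to 34650009. The 3 neighbours differed in how evenly they rose, and Ifit1, Ifit2 and Ifit3 are named here after their values were seen. Ifit2 was at 36.9, 28.9, 28.1 and 20.9 CPM in sick knock-in mice, against 11.7, 10.4, 9.44 and 9.14 CPM in healthy knock-in mice and 11.4, 9.02, 12.7 and 10.5 CPM in wild-type mice. Sick mouse 1 was the highest and mouse 3 was in the middle, and the log2 fold change of 1.40 ± 0.18 against wild-type (edgeR adjusted p = 4.9e-05) was 1.41 without mouse 3. Ifit1 was at 4.54, 6.41, 15.1 and 5.04 CPM in sick knock-in mice, against 2.73, 5.20, 3.20 and 2.27 CPM in healthy knock-in mice and 3.48, 4.01, 1.99 and 3.65 CPM in wild-type mice. Its sick mice did not overlap wild-type, but healthy knock-in mouse 2 lay above sick mice 1 and 4. The log2 fold change of 1.22 ± 0.40 against wild-type (adjusted p = 0.0228) was 0.69 without sick mouse 3 and no longer passed (adjusted p = 0.0878), nor did the value of 1.04 without wild-type mouse 3 (adjusted p = 0.0649). Ifit3 stood at 25.7, 13.5, 38.6 and 9.76 CPM in sick knock-in mice, against 6.10, 9.24, 8.81 and 5.73 CPM in healthy knock-in mice and 5.91, 15.4, 7.71 and 7.24 CPM in wild-type mice. Wild-type mouse 2 lay above sick mice 2 and 4, and the log2 fold change of 1.26 ± 0.41 (adjusted p = 0.0219) was 0.84 without sick mouse 3 (adjusted p = 0.0811). The call was also lost without sick mouse 1 or wild-type mouse 1, 3 or 4 (1.10 to 1.18, adjusted p = 0.0532 to 0.0634). Reads of Ifit3 may be shared with its near-identical neighbour Ifit3b, and the sources used here do not say how such reads were counted.

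Mx1 in its functional form encodes a nuclear dynamin-like GTPase that blocks influenza virus, and the allele of these mice was not given. Mx1 was at 1.58, 0.631, 2.53 and 2.72 CPM in sick knock-in mice, against 0.635, 0.787, 0.572 and 0.397 CPM in healthy knock-in mice and 0.647, 0.472, 0.520 and 0.913 CPM in wild-type mice. Sick mouse 2 lay among the other groups and the other 3 sick mice were above them, with a log2 fold change of 1.51 ± 0.45 against wild-type (edgeR adjusted p = 0.0128). The call was lost in limma-voom with quality weights (1.03, adjusted p = 0.0574) and with sick mouse 3 and wild-type mouse 2 both left out (1.20, adjusted p = 0.0711), and under the stricter filter on low counts Mx1 was not tested. Its relative Mx2, a polymorphic pseudogene in the reference annotation, averaged 2.79 ± 1.98 CPM in sick knock-in, 1.11 ± 0.251 CPM in healthy knock-in kidney and 1.40 ± 0.441 CPM in wild-type kidney, with adjusted p-values of 0.0779 against wild-type and 0.0237 against healthy knock-in. Bst2 encodes tetherin, which holds budding virus at the cell surface, and was at 13.8, 16.3, 43.3 and 18.8 CPM in sick knock-in mice, against 8.64, 11.8, 9.96 and 11.4 CPM in healthy knock-in mice and 9.79, 23.8, 8.32 and 15.1 CPM in wild-type mice. The sick mice were above every healthy knock-in mouse (log2 fold change 1.13 ± 0.38, adjusted p = 0.0272), but wild-type mouse 2 was above 3 of the 4 sick mice and the value of 0.68 ± 0.38 against wild-type did not pass (adjusted p = 0.153). Without wild-type mouse 2 the value against wild-type was 1.03 (adjusted p = 0.0348), and without sick mouse 3 the values were 0.64 against healthy knock-in (adjusted p = 0.106) and 0.18 against wild-type. The call against healthy knock-in was also lost without healthy knock-in mouse 1 or 3 (1.05 and 1.10, adjusted p = 0.0719 and 0.0602).

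Rsad2 went against its neighbours in the list. It encodes viperin, a radical SAM enzyme that makes a chain-terminating nucleotide (ENSMUSG00000020641, chromosome 12 from 26442746 to 26456452), and an ISRE core stands in the stretch printed above. It was at 9.12, 13.9, 22.6 and 11.8 CPM in sick knock-in mice, against 27.7, 32.2, 15.5 and 15.0 CPM in healthy knock-in mice and 34.8, 29.5, 40.4 and 24.3 CPM in wild-type mice. All 4 sick mice were below all 4 wild-type mice, while healthy knock-in mice 3 and 4 lay within the sick range. The log2 fold change was -1.18 ± 0.31 against wild-type (edgeR adjusted p = 0.00697) and -0.66 ± 0.31 against healthy knock-in (adjusted p = 0.0959). Sick mouse 3 was the highest of the sick mice, and without it the values were -1.48 (adjusted p = 0.00145) and -0.96 (adjusted p = 0.0179). Under that scaling to totals Rsad2 was at -0.61 against wild-type and was not called (adjusted p = 0.105). Cmpk2, a nucleotide kinase gene that is induced together with Rsad2 in many cells and is named here after its values were seen, averaged 9.65 CPM in sick knock-in, 12.5 CPM in healthy knock-in kidney and 14.2 CPM in wild-type kidney, with a log2 fold change of -0.57 ± 0.24 against wild-type that did not pass (adjusted p = 0.0620).

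Isg15 encodes a ubiquitin-like protein that is joined to other proteins, and Usp18 the protease that takes it off and also blocks the type I receptor. Neither was called against wild-type. Isg15 was at 3.00, 4.15, 12.3 and 4.06 CPM in sick knock-in mice, against 2.86, 2.94, 2.29 and 1.99 CPM in healthy knock-in mice and 3.32, 6.07, 2.43 and 4.04 CPM in wild-type mice. The sick mice were above the healthy knock-in mice, mouse 1 only just, and overlapped the wild-type mice. Its log2 fold change was 1.20 ± 0.43 against healthy knock-in (edgeR adjusted p = 0.0348) and 0.54 ± 0.42 against wild-type (adjusted p = 0.307). Without sick mouse 3 the values were 0.56 (adjusted p = 0.148) and -0.10 (adjusted p = 0.809), and the call against healthy knock-in was also lost without any 1 of the 4 healthy knock-in mice (adjusted p = 0.0521 to 0.0870). Usp18, named here after its values were seen, was at 2.64, 2.72, 10.9 and 2.36 CPM in sick knock-in mice, against 2.99, 2.99, 2.17 and 2.10 CPM in healthy knock-in mice and 2.75, 3.83, 2.69 and 2.81 CPM in wild-type mice. Sick mice 1, 2 and 4 lay at the level of the other groups and mouse 3 alone stood above them.

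**Figure D2:**
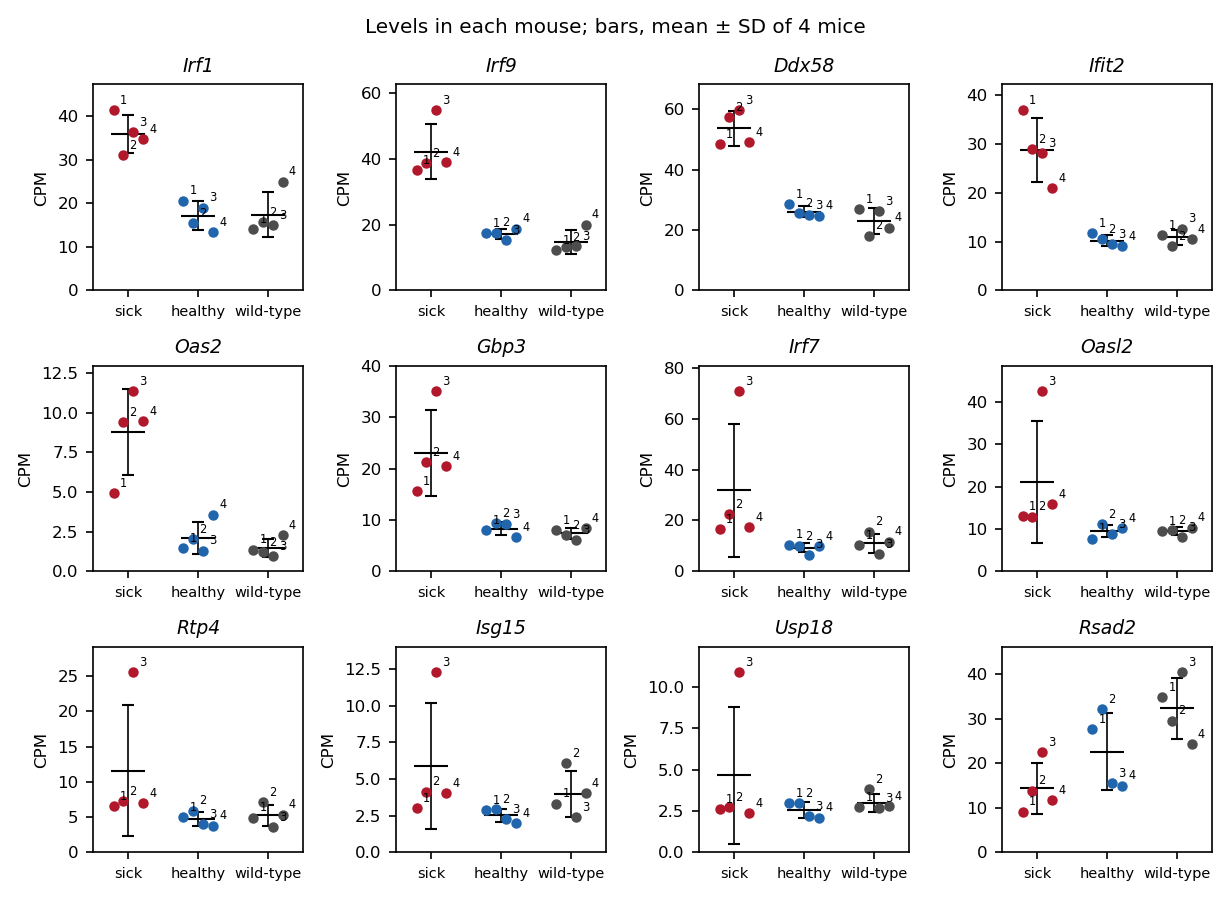
CPM of 12 interferon-stimulated genes in each kidney (points numbered by mouse, lines and bars for the mean ± SD of 4 mice, axes from 0). Irf1, Irf9, Ddx58, Ifit2, Oas2 and Gbp3 are raised in all 4 sick mice, Irf7, Oasl2, Rtp4, Isg15 and Usp18 are far higher in sick mouse 3 than in sick mice 1, 2 and 4, and Rsad2 is lower in sick mice than in wild-type mice.

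Interferon-inducible GTPases act on the vacuoles that hold bacteria and parasites, and 3 of the 5 rose in both comparisons. These were the 3 guanylate-binding proteins, whose genes stand together on chromosome 3, Gbp7 from 142530342 to 142550149, Gbp3 from 142560026 to 142573209 and Gbp2 from 142620602 to 142638008. Gbp3 was at 15.6, 21.3, 35.1 and 20.5 CPM in sick knock-in mice, against 8.07, 9.34, 9.21 and 6.70 CPM in healthy knock-in mice and 8.09, 7.07, 6.07 and 8.48 CPM in wild-type mice. No sick mouse overlapped the other groups, and the log2 fold change was 1.63 ± 0.24 against wild-type and 1.47 ± 0.23 against healthy knock-in (edgeR adjusted p = 1.1e-04 and 2.8e-04). Gbp2 averaged 25.4 ± 3.12 CPM in sick knock-in, 10.6 ± 2.36 CPM in healthy knock-in kidney and 10.3 ± 4.07 CPM in wild-type kidney, and Gbp7 averaged 29.0 ± 4.06, 18.1 ± 2.40 and 15.6 ± 6.49 CPM in those groups (SD, n = 4 each). Gbp7, which holds the ISRE core printed above, was not led by sick mouse 3, and its log2 fold change against healthy knock-in (0.68 ± 0.25, adjusted p = 0.0402) did not pass when any 1 of the 8 libraries was left out. The immunity-related GTPases behaved otherwise. Irgm1, which guards the cell's own membranes, was at 51.8, 47.9, 79.0 and 44.5 CPM in sick knock-in mice, against 45.9, 43.0, 47.0 and 51.7 CPM in healthy knock-in mice and 50.5, 38.2, 38.2 and 51.0 CPM in wild-type mice, with the groups overlapping and sick mouse 3 above all. Its log2 fold change of 0.33 ± 0.18 against wild-type did not pass (adjusted p = 0.150). Igtp, which encodes the related Irgm3, averaged 9.95 ± 2.88 CPM in sick knock-in, 12.6 ± 3.34 CPM in healthy knock-in kidney and 15.5 ± 9.60 CPM in wild-type kidney, where mouse 4 reached 29.7 CPM. Exons of Igtp share 162 bases with Irgm2, and reads there could have been counted for either.

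Genes of antigen processing all rose in both comparisons. Psmb8, Psmb9 and Psmb10 encode the subunits that turn the proteasome into the immunoproteasome, and Tap1 a component of the pump that carries its peptides to MHC class I. Tap1, Psmb8 and Psmb9 lie together in the MHC on chromosome 17, between 34181987 and 34201454. Psmb8 was at 22.9, 20.1, 38.4 and 30.9 CPM in sick knock-in mice, against 10.3, 8.14, 11.4 and 7.44 CPM in healthy knock-in mice and 6.07, 12.3, 6.59 and 11.8 CPM in wild-type mice. Tap1 was at 21.6, 23.3, 30.5 and 24.6 CPM in sick knock-in mice, against 12.3, 10.0, 11.8 and 7.50 CPM in healthy knock-in mice and 6.72, 8.96, 7.37 and 12.3 CPM in wild-type mice. In both genes every sick mouse was above every other mouse. The log2 fold changes against wild-type were 1.60 ± 0.28 for Psmb8 and 1.50 ± 0.22 for Tap1, and against healthy knock-in 1.59 ± 0.28 and 1.26 ± 0.22 (edgeR adjusted p = 1.2e-04 to 5.3e-04 over the 4 values). Psmb10 was at 25.3, 23.1, 36.6 and 29.7 CPM in sick knock-in mice, against 9.98, 9.82, 11.3 and 8.86 CPM in healthy knock-in mice and 7.04, 22.2, 7.80 and 11.2 CPM in wild-type mice. Wild-type mouse 2 came close to the lowest sick mouse, and the log2 fold change was 1.24 ± 0.31 against wild-type and 1.52 ± 0.31 against healthy knock-in. Psmb9, at 10.0 ± 3.01 CPM in sick knock-in, 5.46 ± 1.36 CPM in healthy knock-in kidney and 6.01 ± 1.80 CPM in wild-type kidney, rose least, by 0.73 ± 0.28 against wild-type (adjusted p = 0.0424), and its call was lost without sick mouse 3, sick mouse 4, wild-type mouse 1 or wild-type mouse 3 (0.57 to 0.63, adjusted p = 0.0965 to 0.129). Exons of Tap1 and Psmb9 overlap on opposite strands over 212 bases, those of Psmb8 and the antisense gene Gm20496 over 498 bases, and the sources used here do not say whether the libraries kept strand.

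Of the 5 remaining members, Ifi27, Rtp4 and Xaf1 rose in both comparisons. Ifi27, a small hydrophobic protein of organelle membranes, was at 38.0, 40.6, 103.0 and 53.6 CPM in sick knock-in mice, against 18.9, 21.3, 22.5 and 19.4 CPM in healthy knock-in mice and 19.5, 39.0, 13.9 and 21.5 CPM in wild-type mice. Wild-type mouse 2 lay just above sick mouse 1, and the log2 fold change was 1.31 ± 0.34 against wild-type and 1.51 ± 0.34 against healthy knock-in (edgeR adjusted p = 0.00595 and 0.00295). Rtp4, a chaperone of membrane receptors that limits flavivirus replication, averaged 11.6 ± 9.31 CPM in sick knock-in, 4.69 ± 0.983 CPM in healthy knock-in kidney and 5.24 ± 1.48 CPM in wild-type kidney. Its level was 25.6 CPM in sick mouse 3 and 6.53 to 7.27 CPM in the other sick mice, and without mouse 3 the value against wild-type was 0.40 (adjusted p = 0.200). That call was also lost without wild-type mouse 1, 3 or 4 (adjusted p = 0.0731 to 0.102). Xaf1, a pro-apoptotic partner of XIAP, averaged 8.43 ± 3.65 CPM in sick knock-in, 4.74 ± 1.10 CPM in healthy knock-in kidney and 4.69 ± 1.14 CPM in wild-type kidney. Its log2 fold change against wild-type was 0.83 ± 0.30 with mouse 3 (adjusted p = 0.0329) and 0.48 without it (adjusted p = 0.120), and the call was also lost without wild-type mouse 1, 3 or 4 (0.74 to 0.83, adjusted p = 0.0597 to 0.0867). Ifi35, a leucine-zipper protein that binds Nmi, was at 15.2, 15.0, 31.3 and 20.2 CPM in sick knock-in mice, against 11.1, 11.4, 11.5 and 15.2 CPM in healthy knock-in mice and 10.3, 22.5, 10.6 and 13.2 CPM in wild-type mice. The sick mice overlapped both groups, and the log2 fold changes of 0.52 ± 0.29 and 0.72 ± 0.29 did not pass (adjusted p = 0.148 and 0.0541). Exons of Ifi35 share 290 bases with the antisense gene Gm11626. Ifi44, a GTP-binding protein of uncertain role, averaged 11.6 ± 5.92 CPM in sick knock-in, 11.7 ± 3.47 CPM in healthy knock-in kidney and 14.5 ± 2.50 CPM in wild-type kidney.

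**Figure D3:**
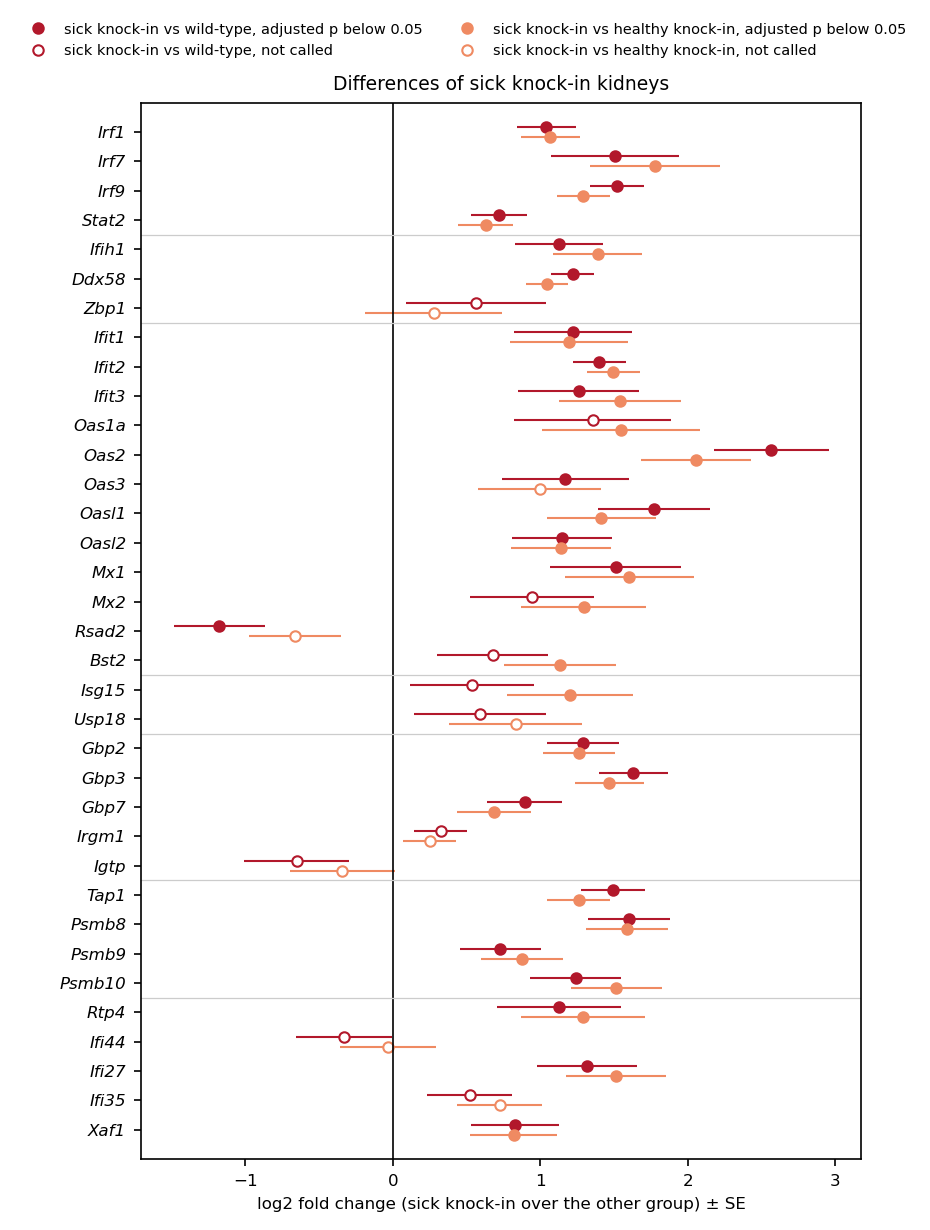
Log2 fold change ± SE of each member in sick knock-in kidneys over wild-type (dark red) and over healthy knock-in (orange), filled where the edgeR adjusted p is below 0.05. Of the 35 members, 32 lie right of 0 in each comparison, Oas2 is farthest right, and Rsad2 is the filled point farthest left.

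Per exon length, averaged over the 12 libraries, the members spanned 0.156 CPM per kb for Oas3 to 23.3 CPM per kb for Ifi27. Bst2 followed at 17.6 CPM per kb, then Psmb10 at 9.91 and Ifi35 at 9.05 CPM per kb. The single-library counts behind these levels ran from 3 to 1729, and 11 members had over 100 counts in every library. The lowest members, Oas3 and Mx1, thus rest on few reads.

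The evenness of the rise among sick mice varied by degrees over the members. In sick mouse 3, 15 of the 35 members (42.9%) were at least 2-fold above the mean of the other 3 sick mice, where 2.88% of all genes were. The ratio was highest for Usp18 at 4.23, Irf7 at 3.75, Rtp4 at 3.68, Isg15 at 3.29, Oas1a at 3.22 and Mx2 at 3.20. It was near 1 for Gbp7 at 0.902, Ifit2 at 0.971, Irf1 at 1.02, Ddx58 at 1.16 and Gbp2 at 1.16. The summed level of the 35 members was 1032 CPM in sick mouse 3 and 584 to 630 CPM in the other sick mice, against 329 to 379 CPM in healthy knock-in kidney and 325 to 428 CPM in wild-type mice. The macrophage sum was 922 CPM in sick mouse 3 and 1824, 879 and 1209 CPM in sick mice 1, 2 and 4, and the T and NK cell sum was 23.4 CPM there and 16.3, 12.3 and 36.3 CPM in those mice, so that sick mouse 3 lay within the range of the others in both. It had the highest sum of markers of nephron segments beyond the proximal tubule, 4426 CPM, where sick mice 1, 2 and 4 had 1546, 2798 and 865 CPM. It had the lowest sums of the sick mice for listed markers of endothelium (299 CPM), neutrophils (5.53 CPM) and plasmacytoid dendritic cells, known for making type I interferon (43.7 CPM). That last sum was 43.7 to 72.2 CPM in sick knock-in, 41.7 to 50.8 CPM in healthy knock-in and 32.2 to 47.3 CPM in wild-type kidney. Of its 6 genes, which include Tcf4 and Runx2, 4 were tested. Against wild-type 2 of these rose, where 25.9% of all genes did, and against healthy knock-in 1 rose, where 24.5% did. How far this sum follows plasmacytoid dendritic cells was not tested. The part of these cell types in the levels of sick mouse 3 was not tested. Without sick mouse 3, 18 members rose and Rsad2 fell against wild-type, with a median log2 fold change of 0.76, and 19 rose and Rsad2 fell against healthy knock-in, with a median of 0.78. The calls lost against wild-type were those of Ifit1, Ifit3, Oas3, Psmb9, Rtp4 and Xaf1. The same 6 were lost without wild-type mouse 3, and all of these but Ifit1 without wild-type mouse 1, with medians of 1.03 and 1.05. Without wild-type mouse 4, 23 members rose and Rsad2 fell. Against healthy knock-in, 19 members also rose without healthy knock-in mouse 1 and without healthy knock-in mouse 4, with medians of 1.26 and 1.17. With both sick mouse 3 and wild-type mouse 2 left out, a setting chosen after seeing the data, 21 members rose and Rsad2 fell against wild-type, with a median of 0.80.

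**Figure D4:**
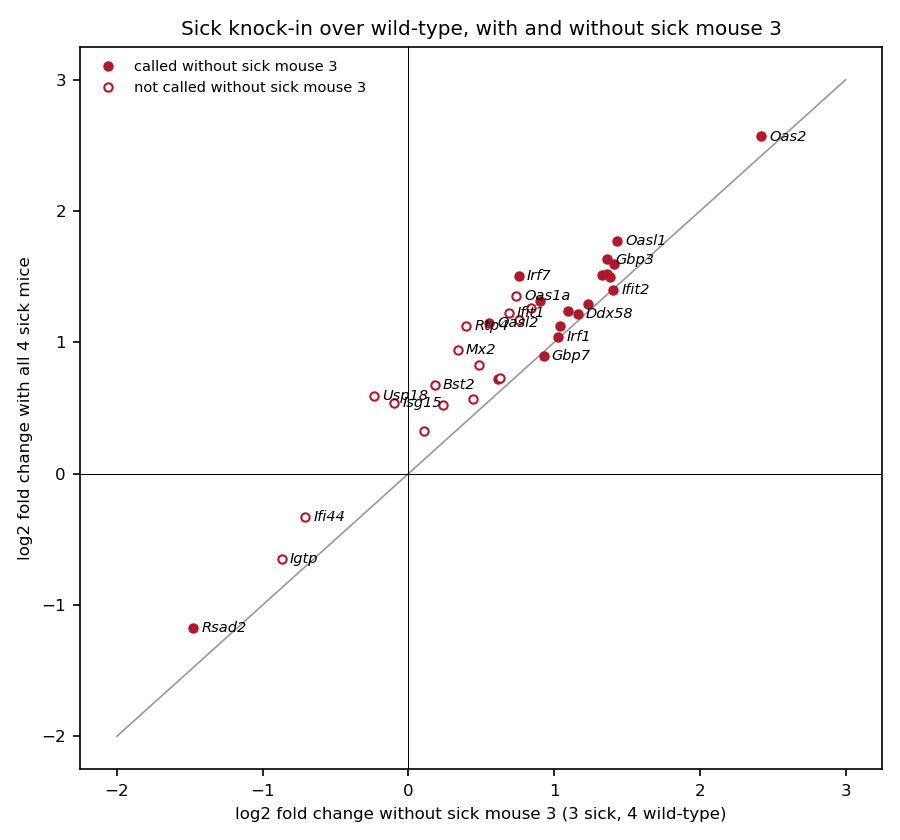
Log2 fold change of each member in sick knock-in over wild-type kidneys with all 4 sick mice (vertical axis) against the value without sick mouse 3 (horizontal axis), with the line of equal values and filled points where the adjusted p without mouse 3 is below 0.05. Ifit2, Irf1, Ddx58 and Gbp7 lie on or near the line, Usp18 and Isg15 cross to negative values of -0.24 and -0.10, and the median of the members was 1.15 with mouse 3 and 0.76 without it.

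Healthy knock-in kidneys were set against wild-type kidneys to ask whether the substitution alone accompanies a change. None of the 35 members was called in either direction in edgeR, where 0.308% of all genes rose and 0.00641% fell. The smallest adjusted p was 0.912, 0 members had an unadjusted p below 0.05, and DESeq2 and limma-voom also called 0. The median log2 fold change of the members was -0.09, against -0.01 over all genes. Values ran from -0.66 ± 0.43 for Isg15 to 0.51 ± 0.39 for Oas2, and the SE was 0.14 to 0.55 over the members. A p that misses the threshold does not show that the groups are alike. Sick against wild-type and healthy knock-in against wild-type share the wild-type mice. Side by side, Irf9 differed by 1.52 in sick and 0.23 in healthy knock-in mice on the log2 scale, Oas2 by 2.57 and 0.51, Gbp3 by 1.63 and 0.16, and Rsad2 by -1.18 and -0.51.

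Upstream of these genes, transcripts of the interferons themselves had few counts or none. Of 21 interferon genes listed, 17 were in the table and none had enough counts to be tested. The 10 alpha interferon genes in the table, Ifnb1, Ifne and Ifnl2 had 0 counts in all 12 libraries, and a count of 0 allows up to 3 counts in a library of this depth. Ifng, made by T and NK cells, had 6 counts over the 4 sick knock-in mice, 2 over the healthy knock-in mice and 3 over the wild-type mice, too few for a comparison.

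Of 12 genes of interferon receptors, their kinases and Stat and Socs proteins, 8 rose and 0 fell against wild-type, where 25.9% of all genes rose and 25.0% fell, and 7 rose and 0 fell against healthy knock-in, where 24.5% of all genes rose and 21.9% fell. Both chains of the interferon gamma receptor rose. Ifngr1, the ligand-binding chain, was at 123, 124, 101 and 130 CPM in sick knock-in mice, against 37.2, 30.0, 31.5 and 39.1 CPM in healthy knock-in mice and 31.6, 33.8, 28.2 and 41.4 CPM in wild-type mice. The groups were far apart, sick mouse 3 was the lowest sick mouse, and the log2 fold change against wild-type was 1.83 ± 0.15 (edgeR adjusted p = 2.5e-06). Ifngr2 averaged 65.1 CPM in sick knock-in, 32.0 CPM in healthy knock-in kidney and 29.7 CPM in wild-type kidney. Socs3, an inhibitor of Jak signalling that responds to many cytokines, averaged 41.5, 4.15 and 3.46 CPM in those groups, and Stat3, the main target of interleukin 6 signalling, 212, 102 and 70.4 CPM.

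Among 15 genes that lead to interferon production, 9 rose and 2 fell against wild-type, and 9 rose and 1 fell against healthy knock-in, beside those same shares of all genes. Tmem173, which encodes STING, the adaptor of cytosolic DNA sensing, was at 29.6, 16.8, 24.0 and 25.1 CPM in sick knock-in mice, against 5.53, 4.20, 5.55 and 4.83 CPM in healthy knock-in mice and 3.96, 4.24, 3.21 and 4.89 CPM in wild-type mice, without overlap (log2 fold change against wild-type 2.54 ± 0.21, edgeR adjusted p = 2.8e-06). The endosomal RNA receptors Tlr7 and Tlr8, which in mouse are found mainly on myeloid and other immune cells, averaged 15.5 and 8.98 CPM in sick knock-in, 2.25 and 1.02 CPM in healthy knock-in kidney and 1.92 and 0.530 CPM in wild-type kidney. Tlr7 was highest in sick mouse 1 at 24.3 CPM, the mouse with the highest macrophage sum, and lowest in sick mouse 3 at 10.4 CPM. The lowest macrophage sum was that of sick mouse 2, at 879 CPM, and a link of Tlr7 with macrophage content was not tested. Myd88, the adaptor of Tlr7 and Tlr8, rose by 0.68 ± 0.13. The 2 that fell against wild-type were Ticam1, the adaptor of Tlr3 (-0.42 ± 0.12), and Trim25, a ubiquitin ligase that activates RIG-I (-0.36 ± 0.13). The interferon kinase gene Tbk1 and the factor gene Irf3, named here after their values were seen, were at log2 fold changes of -0.16 ± 0.15 and -0.28 ± 0.22 and did not pass.

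**Figure D5:**
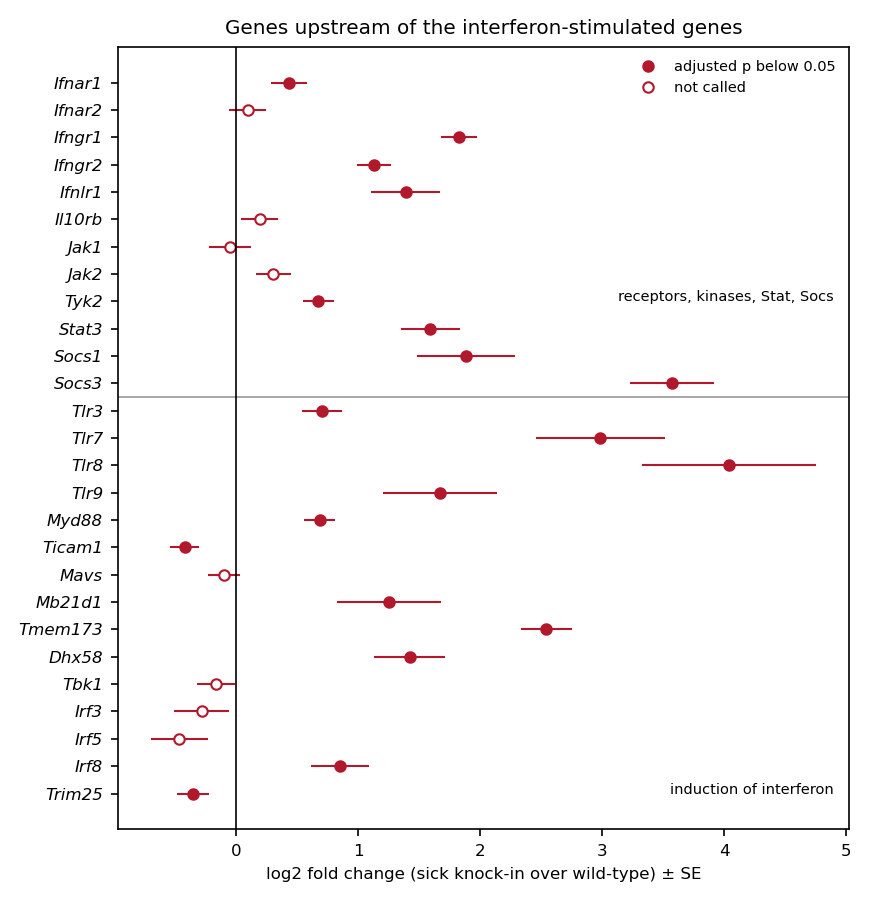
Log2 fold change ± SE in sick knock-in over wild-type kidneys of 12 genes of receptors, kinases, Stat and Socs proteins (above the line) and 15 genes that lead to interferon production (below it), filled where the edgeR adjusted p is below 0.05. Ifngr1, Socs3, Tmem173, Tlr7 and Tlr8 lie far right, and Jak1 and Mavs lie close to 0.

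A second list of 50 interferon-stimulated genes outside the 35 had 48 tested, of which 27 rose and 0 fell against wild-type and 28 rose and 0 fell against healthy knock-in, with medians of 0.85 and 0.80 on the log2 scale. The shares of all genes that rose were 25.9% and 24.5%. Slfn2, a regulator of quiescence in T cells and monocytes, averaged 27.7 CPM in sick knock-in, 7.16 CPM in healthy knock-in kidney and 7.49 CPM in wild-type kidney (log2 fold change against wild-type 1.88 ± 0.21). Parp12, a mono-ADP-ribosyltransferase with antiviral action, averaged 31.6, 15.7 and 13.7 CPM in those groups. Samhd1, which depletes nucleotides and so restrains retroviruses, averaged 57.3, 27.8 and 24.3 CPM, and Lgals3bp, a secreted glycoprotein, 200, 71.2 and 59.3 CPM. Against healthy knock-in mice Tapbp, the tapasin gene of peptide loading, rose by 1.19 ± 0.17, and Ifitm2, which blocks virus entry, by 1.16 ± 0.17. Genes that respond to interferon gamma in many cells were also among those that did not pass: Cxcl9 averaged 1.64 CPM in sick knock-in, 2.28 CPM in healthy knock-in kidney and 1.80 CPM in wild-type kidney, Iigp1 averaged 8.48, 8.19 and 8.92 CPM, and Gbp4 averaged 5.25, 6.40 and 7.19 CPM. These 3 are named here after their values were seen, and Irf1, an early target of interferon gamma, rose in both comparisons.

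In the authors' deposited table, 9 members were higher in sick knock-in than in wild-type mice at an adjusted p below 0.05, 12 were higher in sick than in healthy knock-in mice and 0 differed between healthy knock-in and wild-type mice. Of the genes given an adjusted p in the authors' deposited table, 11.5% were higher and 8.96% lower in sick than in wild-type mice, 9.07% higher and 7.81% lower in sick than in healthy knock-in mice, and 0.237% higher and 0.00483% lower in healthy knock-in than in wild-type mice. The 9 members higher against wild-type and the 12 higher against healthy knock-in were all also called higher in edgeR. The authors' deposited table gave Rsad2 a log2 fold change of -1.14 in sick against wild-type mice with an adjusted p of 0.150. DESeq2 1.42.0, run here on the raw counts after filterByExpr, called more members. Against wild-type 25 rose and 1, Rsad2, fell, where 26.4% of all genes rose and 27.1% fell. Against healthy knock-in 28 rose and 0 fell, where 25.4% of all genes rose and 24.4% fell. The authors' adjusted p-values are therefore not directly comparable with those given here, and why they differ was not tested.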

How the data were processed

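Kidney RNA was isolated with the miRvana kit and, after DNase, went into Trueseq libraries, per the labels' protocols. The submitters' processing notes name TopHat2 2.0.11, Trim Galore 0.3.7, DESeq2 1.12.4 and Cufflinks and the build GRCm38. No counting program is named. The authors deposited raw counts per Ensembl gene, and beside them other values of their own comparisons, log2 fold changes and adjusted p-values, per the file headers. Another 12 columns of per-sample values were not used.

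Groups came from the labels. Counts were fitted in edgeR 4.0.16 (R 4.3.3) on all 12 libraries, after filterByExpr and TMM scaling (factors 1.23 to 1.39 in sick knock-in, 0.804 to 0.933 in healthy knock-in and 0.839 to 0.901 in wild-type mice), with 1 mean per group, no covariate, quasi-likelihood F tests and Benjamini-Hochberg adjustment over 15589 genes (threshold 0.05). The steps were tested on simulated data. Mice were separate animals. Positions and exon lengths came from a GRCm38 annotation. The members and lists were chosen with earlier results of these data known. A gene of the list of receptors and kinases is not reported here. Values in every mouse were given for the 8 members with the largest rise and any that fell against wild-type, the 4 highest per exon length and the highest of each role, and of each other list up to 4 with the smallest p were named. Members named otherwise are stated to be so or are given by group means. Alternatives were DESeq2 size factors, upper-quartile scaling, totals alone, 2 other filters, the 8 libraries of a comparison alone, a replicate block, DESeq2 1.42.0, limma-voom (limma 3.58.1), a minimum log2 fold change of 0.5 and leaving out each library.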

Additional observations from a re-analysis of the deposited data

Results flagged for a closer look

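In each of the 3 groups of 4 mice, each member was examined for a mouse far from the other 3, and 17 of the 105 groups of values held one by Dixon's criterion. Chance alone gives about 1 in 20 groups if values are normally distributed, which was not tested for these CPM values. Of the 17, 10 were sick knock-in mouse 3 lying above the other sick mice. These were Irf7 at 70.8 CPM, Irf9 at 54.9 CPM, Oas1a at 7.37 CPM, Oasl2 at 42.4 CPM, Mx2 at 5.76 CPM, Bst2 at 43.3 CPM, Isg15 at 12.3 CPM, Usp18 at 10.9 CPM, Rtp4 at 25.6 CPM and Xaf1 at 13.9 CPM. In sick knock-in mouse 2, Gbp7 was the high value at 35.1 CPM. Among healthy knock-in mice, Ifi35 was high in mouse 4 at 15.2 CPM and Xaf1 was low in mouse 3 at 3.09 CPM. Among wild-type mice, mouse 4 was high for Irf1 at 25.0 CPM and Irf9 at 20.0 CPM and low for Ifi44 at 10.8 CPM, and mouse 2 was high for Usp18 at 3.83 CPM. The members vary together within a mouse, so these values are not independent of each other.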

How the results depend on the processing

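Over 19 alternatives, 15 of the 25 members called against wild-type and 15 of the 27 called against healthy knock-in kept their call and direction in every one. When single libraries were left out, the members that rose numbered 18 to 26 against wild-type, with 1 falling each time, and 19 to 27 against healthy knock-in, with 0 to 1 falling. Against healthy knock-in, a minimum log2 fold change of 0.5 left 16 that rose, and 1 fell (Rsad2) in limma-voom, without sick mouse 3, and without sick mouse 3 and wild-type mouse 2. Against wild-type, 16 rose and 1 fell with that minimum, and scaling by library totals alone left 0 that fell. With the replicate number as a block, 21 members rose and 1 fell against wild-type and 22 rose and 0 fell against healthy knock-in. The numbers were not taken to pair mice, since deviations of same-numbered mice correlated at -0.26 to 0.24. No member was called in healthy knock-in against wild-type mice under any of these alternatives. None of the values that changed sign passed the threshold on either side. Against wild-type, these were Isg15 and Usp18 without sick mouse 3 (over single libraries left out, Isg15 ran from -0.10 to 0.81 and Usp18 from -0.24 to 0.81), Usp18 without sick mouse 3 and wild-type mouse 2 (-0.10), and Ifi44 with totals alone (0.23). Against healthy knock-in, they were Zbp1 in limma-voom (-0.0032) and without sick mouse 4 (-0.0017 to 0.54 over single libraries left out), Igtp with totals alone (0.22), and Ifi44 with upper-quartile scaling (0.081), with totals alone (0.52) and without sick mouse 1 or 4 or healthy knock-in mouse 1 or 2 (-0.40 to 0.19 over single libraries left out). The cause was not tested. Depth limits the lowest members, and the bound of 3 counts given for a count of 0 covers counting error only.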
